A study of Homo sapiens with 12 samples.

Results

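The genes described here are 9 genes of prostanoid synthesis and reception: the phospholipase gene PLA2G4A, the cyclooxygenase genes PTGS1 and PTGS2, the synthase genes PTGES, PTGES2, PTGES3 and PTGIS, and the receptor genes PTGER2 and PTGER4. They were chosen by name and not by their values, though with earlier results of these data known, from the 25702 genes of the count table. All 9 were found in it. They were followed in WI-38 cells, a line of normal human lung fibroblasts, grown in flasks with 10% serum. The 4 groups were D1 and D20, left untreated for 1 or 20 days, and D1+ TGF-β and D20+ TGF-β, kept in 2 ng/mL TGF-β for the same times, with 3 flasks each and no change to the genome in any group. The cells were at passage 2 to 3 on day 1 and at passage 5 to 6 on day 20, so that time in culture, passage number and day of harvest cannot be told apart. The day 20 flasks of each treatment were grown from 1 flask split on day 1, and the flasks sequenced were taken from 5 per group by RNA quality.

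Prostanoids are lipid mediators that cells make on demand and release to act on themselves and their neighbours. Cytosolic phospholipase A2, the product of PLA2G4A, frees arachidonic acid from membranes. The cyclooxygenases turn it into prostaglandin H2: PTGS1 (COX-1) is present at a steady level in many cells, while PTGS2 (COX-2) is induced within hours by cytokines and growth factors and its RNA is short lived. Terminal synthases then make prostaglandin E2 (PTGES, inducible and commonly coupled to COX-2, PTGES2 and PTGES3, more evenly expressed) or prostacyclin (PTGIS). In fibroblasts prostaglandin E2 acts through the receptors EP2 (PTGER2) and EP4 (PTGER4), which couple to Gs and raise cyclic AMP, a signal known to restrain fibroblast proliferation and collagen synthesis and to oppose TGF-β. TGF-β drives fibroblasts towards myofibroblasts, the contractile, matrix-forming cells of scars.

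Values are given in cpm, that is, the reads of a gene scaled to a common library size, with a TMM factor for composition. Library totals lay between 8674488 and 18286197 counts with a median of 11613084, so that 3 counts, the upper limit that a count of 0 allows, stood for 0.164 to 0.346 cpm; such limits cover counting error only. Each test is the quasi-likelihood test of edgeR with p adjusted over all genes tested, and a call means an adjusted p under 0.01. Of the 9 members, 6 reached 10 cpm in 6 or more libraries and were tested among 9490 such genes. PTGS1, PTGES2, PTGES3 and PTGER2 reached it in all 12 libraries. PTGER4 reached it in 5 treated and 1 untreated flask, so it passed largely through the treated flasks, where it is higher, and PLA2G4A in 2 treated and 4 untreated flasks. PTGS2, PTGES and PTGIS fell below that level and were read from a fit without a filter over the 20434 genes with a count, which in simulated data made more false calls than its threshold allows. The day 20 flasks of a treatment came from 1 flask, and nothing in the labels says that the day 1 flasks were independent cultures. The p-values therefore measure the spread between these flasks. On day 20 an effect of the parent flask cannot be told apart from TGF-β or from time. In bulk RNA, fewer cells of a kind and less RNA per cell cannot be told apart.

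A pair of libraries stood apart from their groups before any member was compared. D1 flask 2 and D20+ TGF-β flask 3 lay 0.316 and 0.286 log2 units (root mean square over genes) from the other flasks of their group, against 0.110 to 0.239 for the remaining 10 libraries. Member results that turn on them are given with and without them, as are the counts of pathway genes, a choice made after the spread had been seen. Correlations rest on all 12 libraries. Leaving out a flask that deviates lowers the estimated spread, so p-values without them are smaller by construction. The cells matched their label: the 8 fibroblast markers summed to 13670 cpm or more in every library, all 8 epithelial markers were under 1 cpm in every library (summed level 0.101 to 0.670), as were 6 of 7 leukocyte markers and 4 of 6 endothelial ones. The exceptions were CD14, at 5.33 to 6.19 cpm at D20 and 0.522 cpm or less in the other groups, TEK, at 32.7 cpm or more throughout, and VWF. The 6 proliferation markers summed to 676 to 1038 cpm at D1, 703 to 793 at D1+ TGF-β, 109 to 135 at D20 and 249 to 421 at D20+ TGF-β, and their part in the results below was not tested. Among TGF-β response genes, ACTA2 rose by 2.07 (log2) and COL1A1 by 1.09 on day 1. On day 20 COL1A1 rose by 0.99, and ACTA2 differed by 0.13, which was not called. Of the 7 response genes tested, 5 were called higher on day 1 and 3 on day 20, and 0 lower. On day 20 the ratio of mean cpm, treated to untreated, was 0.617 for CCN2 and 1.04 for TAGLN. Of 3 smooth muscle and myofibroblast markers tested, 3 were called higher on day 1. On day 20, 0 were called higher and 1 lower (CNN1, ratio 0.739).

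The promoters of 4 members are shown because these genes carry the comparisons below: PTGS2 and PTGES, the inducible pair, were both called higher at day 20 than at day 1 of treatment, and PTGER2 and PTGER4 changed in opposite directions under TGF-β on day 1. Each run is the stretch from 250 to 11 bases before the RefSeq start site, read 5′ to 3′ on the strand of the gene, with matches to the searched motifs in capitals. They are RefSeq windows (GRCh38.p14), each found once in GRCh37 at the position given.
PTGS2, chr1:186649566-186649805, minus strand: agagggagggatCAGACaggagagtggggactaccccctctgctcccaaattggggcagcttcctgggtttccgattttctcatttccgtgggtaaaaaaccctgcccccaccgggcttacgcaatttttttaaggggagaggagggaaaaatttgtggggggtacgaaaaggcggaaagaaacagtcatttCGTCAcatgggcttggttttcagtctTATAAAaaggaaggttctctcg
PTGES, chr9:132515332-132515571, minus strand: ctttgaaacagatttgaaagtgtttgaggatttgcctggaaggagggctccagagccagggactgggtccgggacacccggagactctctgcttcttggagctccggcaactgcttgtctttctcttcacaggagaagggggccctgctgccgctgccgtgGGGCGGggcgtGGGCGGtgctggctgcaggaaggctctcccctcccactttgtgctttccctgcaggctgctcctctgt
PTGER2, chr14:52780780-52781019, plus strand: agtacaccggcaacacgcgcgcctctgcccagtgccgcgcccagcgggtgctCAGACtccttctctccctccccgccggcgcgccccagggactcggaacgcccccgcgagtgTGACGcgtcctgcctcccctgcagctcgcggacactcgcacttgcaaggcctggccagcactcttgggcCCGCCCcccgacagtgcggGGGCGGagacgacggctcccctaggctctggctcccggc
PTGER4, chr5:40679767-40680006, plus strand: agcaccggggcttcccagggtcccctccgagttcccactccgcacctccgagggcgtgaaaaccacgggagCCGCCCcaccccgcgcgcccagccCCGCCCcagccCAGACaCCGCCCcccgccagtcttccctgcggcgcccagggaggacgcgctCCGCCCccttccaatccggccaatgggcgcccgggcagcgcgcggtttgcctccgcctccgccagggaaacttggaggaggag

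The motifs searched, on both strands of the 250 bases before the start, were the TATA box (TATAAA), the CRE core (TGACG), the AP-1 site (TGANTCA), the E-box (CACGTG), the SMAD element (CAGAC) and the GC box (GGGCGG). They were found in 10.7%, 21.2%, 6.57%, 6.34%, 38% and 42.6% of all 35116 RefSeq promoter windows, in that order. The PTGS2 window held a TATA box at -32 to -27, a CRE core on the opposite strand at -58 to -54, which is the stretch CGTCA in the run above, and a SMAD element at -238. The PTGES window held 2 GC boxes, at -89 and -78, and neither a TATA box nor a CRE core, so the inducible synthase and the inducible cyclooxygenase shared none of these 6 motifs. The PTGER2 window held a CRE core at -137, a SMAD element at -198 and 2 GC boxes, and the PTGER4 window 4 GC boxes and a SMAD element at -144. GC content was 50.4% and 61.2% for PTGS2 and PTGES and 74% and 72.8% for PTGER2 and PTGER4. The whole PTGS2 run lies inside the GENCODE extent of PTGS2 given below, which begins further upstream than the RefSeq start site. Part of the PTGS2 run is also exonic in PACERR, a long noncoding RNA on the opposite strand. The first bases of the PTGER2 run lie in an exon of an antisense noncoding RNA. Of the other members, PTGES3 had a CRE core and 4 GC boxes, PLA2G4A no match to any motif, and PTGS1 and PTGES2 had 2 and 3 windows each. PTGIS had no window in the table. A match describes letters and not a bound site.

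In the genome (GRCh37, GENCODE annotation), PTGS2 (Entrez 5743, chr1:186640923-186650054, minus strand) and PLA2G4A (5321, chr1:186798081-186958113, plus strand) are neighbours, 148026 bases apart with 0 annotated genes between them. PTGS1 (5742, chr9:125132809-125157982), PTGES2 (80142, chr9:130882972-130890741) and PTGES (9536, chr9:132500610-132515321) share chromosome 9. PTGES3 (10728) lies at chr12:57057125-57082192, PTGER2 (5732) at chr14:52781023-52795316, PTGER4 (5734) at chr5:40680017-40693837 and PTGIS (5740) at chr20:48120411-48184674. PTGS2 shares 219 exon bases with PACERR. The libraries were strand-specific, but whether the counting made use of strand is not given in the sources used here, so the reads of such a pair may be mixed. PTGES3 and PTGER4 have pseudogenes elsewhere in the genome that could share reads with them.

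Levels of different genes were compared per kilobase of exon, as cpm per kilobase averaged over the 12 libraries. PTGS1 (41.7) and PTGES3 (35.4) were the highest, followed by PTGER2 (13.6), PTGES2 (6.56), PTGES (5.11), PLA2G4A (3.31), PTGER4 (3.12), PTGS2 (1.80) and PTGIS (0.0238). This order is of a mean pooled over conditions and changes between them: PTGES held ranks 6 and 4 in untreated flasks of day 1 and day 20 and ranks 7 and 3 in treated ones, and PTGER4 ranks 7 and 7 and ranks 5 and 8. Per kilobase, the fibroblasts held more RNA of PTGS1 and of PTGES3, the cytosolic E synthase, than of the inducible pair in every condition. PTGS1 led at D1, D20 and D20+ TGF-β, with 42.0 ± 18.4, 54.6 ± 1.16 and 47.1 ± 8.26 cpm per kilobase (SD, n = 3), and stood behind PTGES3 at D1+ TGF-β, with 23.1 ± 1.19 against 42.5 ± 2.79. At D1 the SDs of PTGS1 and PTGES3 overlapped. The neighbours PLA2G4A and PTGER4 overlapped within their SDs at D1 and D20+ TGF-β.

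**Figure D1:**
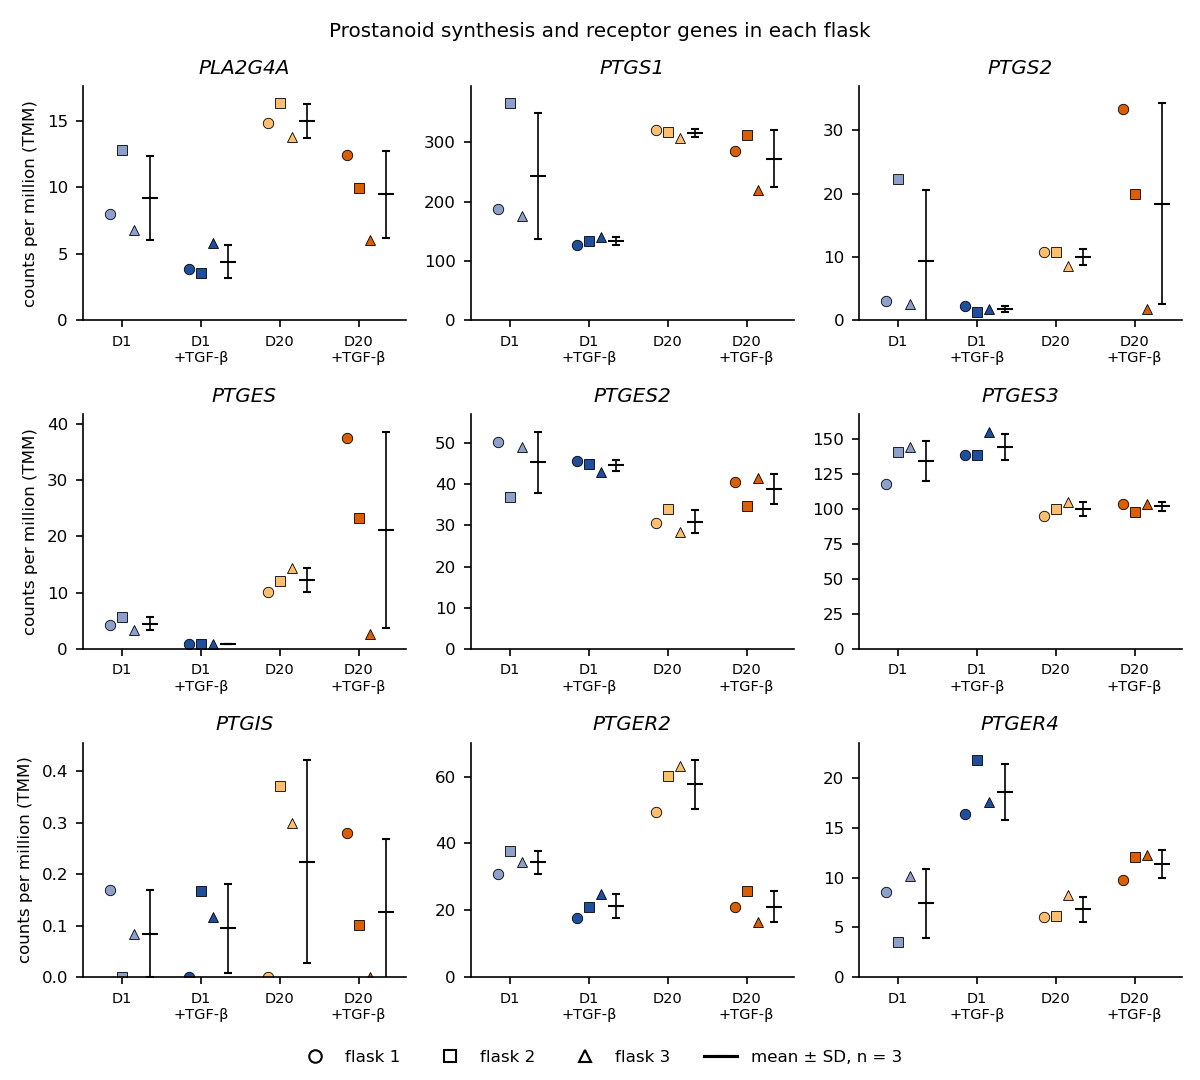
Level in cpm (TMM-scaled, linear axes from 0) of each of the 9 genes in the 12 flasks, by condition; symbols mark flask 1, 2 and 3, and the bar beside them is the mean ± SD of 3 flasks, cut off at 0. All PTGER2 flasks with TGF-β lie below, and all PTGER4 flasks above, the untreated flasks of the same day, while PTGS2 and PTGES spread most at D20+ TGF-β, from 1.78 to 33.4 cpm and from 2.72 to 37.4 cpm.

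The question of D1+ TGF-β vs D1 was what TGF-β does early. Of the 6 members tested, 2 were called, PTGER4 higher and PTGER2 lower, against a background of 13.4% of all tested genes. PTGER4 passed the filter largely through treated flasks, so its part in this count is a description. The flasks of the groups did not overlap for 4 of the 6 (36.4% of all tested genes). The median log2 fold change of the 6 was -0.36, beside -0.02 over all tested genes. D20+ TGF-β vs D20 asks what long treatment does at equal time in culture, with the parent flask not separated from it. Here PTGER2 was the single member called of 6 (background 27.5%). The flasks did not overlap for 4 (background 58.4%), and the median was -0.09 beside 0.01. Of PTGS2, PTGES and PTGIS, 0 were called in either comparison by edgeR in the fit without a filter (backgrounds 8.30% and 17.1%), and 0 by DESeq2 or limma-voom. At an unadjusted p under 0.05, 2 of the 3 passed on day 1 and 1 on day 20.

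Phospholipase. PLA2G4A was at 8.03, 12.8 and 6.79 cpm at D1 and at 3.84, 3.57 and 5.83 cpm at D1+ TGF-β. At D20 it was at 14.8, 16.3 and 13.8 cpm, and at D20+ TGF-β at 12.4, 9.98 and 6.01 cpm. All treated flasks lay below all untreated ones of the same day, and the highest values were those of untreated day 20 cells. The log2 fold change was -1.13 ± 0.30 (SE) on day 1 (adjusted p = 0.0136) and -0.63 ± 0.25 on day 20 (adjusted p = 0.0572), neither past the threshold. Without the 2 libraries that stood apart, the day 1 difference was -0.80 and passed (adjusted p = 0.00334), and the day 20 difference was -0.37 (adjusted p = 0.0359). Without a gene filter the day 1 difference passed too (adjusted p = 0.0015), as it did without D1 flask 3 (0.00881) or D20+ TGF-β flask 3 (0.00349).

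Cyclooxygenases. PTGS1 was at 187, 366 and 176 cpm at D1 and at 127, 133 and 141 cpm at D1+ TGF-β, so that every treated flask was below every untreated one. By day 20 the untreated flasks were at 321, 318 and 308 cpm and at D20+ TGF-β at 286, 312 and 219 cpm, where the groups overlapped. The highest D1 value belonged to flask 2. On day 1 the log2 fold change was -0.86 ± 0.22 (adjusted p = 0.0110), just short of the threshold. It was -0.43 without the 2 libraries that stood apart, where the smaller spread put it past the threshold (adjusted p = 5.03e-05). It also passed without any 1 of the D1 flasks (adjusted p = 0.00856, 0.00952 and 0.00407 without flask 1, 2 and 3), without D20+ TGF-β flask 3 (0.00614) and without a gene filter (0.000526). On day 20 it was -0.21 ± 0.21 (adjusted p = 0.458), with a 95% confidence interval from -0.67 to 0.25.

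PTGS2 was at 3.13, 22.3 and 2.51 cpm at D1 (37, 341 and 30 counts) and at 2.21, 1.34 and 1.75 cpm at D1+ TGF-β (19, 24 and 15 counts). The D20 flasks were at 10.9, 10.7 and 8.59 cpm, and at D20+ TGF-β at 33.4, 20.0 and 1.78 cpm. Flask 2 of D1 stood well above its companions and flask 3 of D20+ TGF-β well below its own, so that the treated and untreated flasks overlapped on day 20 and not on day 1. The log2 fold change was -2.54 ± 0.75 on day 1 (adjusted p = 0.0208) and 0.94 ± 0.54 on day 20 (adjusted p = 0.241). Without the 2 libraries, D20+ TGF-β lay above D20 by 1.46 (adjusted p = 2.19e-33) and the day 1 difference shrank to -0.75 (adjusted p = 0.0215). That day 20 value rests on flasks 1 and 2 of D20+ TGF-β and was obtained by leaving out the flask that went the other way. The day 1 difference passed without D1 flask 1 or 3, D20 flask 2 or any 1 flask of D20+ TGF-β (adjusted p = 1.24e-07 to 0.00988). These were 6 of the 12 fits without 1 library. Over all 12 it ran from -2.97 to -0.75, with an adjusted p of up to 0.552.

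Terminal synthases. PTGES was at 4.23, 5.75 and 3.43 cpm at D1 and at 0.814, 0.893 and 0.817 cpm at D1+ TGF-β, the latter from 7, 16 and 7 counts. At D20 the values were at 10.2, 12.1 and 14.4 cpm, and at D20+ TGF-β at 37.4, 23.3 and 2.72 cpm. On day 1 all treated flasks were at the lowest level of the series with little spread, and on day 20 treated flasks 1 and 2 were the highest of the series while flask 3 was below every untreated flask. The log2 fold change was -2.41 ± 0.67 on day 1 (adjusted p = 0.0148) and 0.83 ± 0.38 on day 20 (adjusted p = 0.120). Without the 2 libraries these were -2.15 (adjusted p = 9.38e-13) and 1.32 (adjusted p = 1.43e-30). The day 1 difference also passed without any 1 flask of D20 or D20+ TGF-β (adjusted p = 4.07e-11 to 0.00719). The same flask of D20+ TGF-β thus sat low for both inducible genes.

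The difference between the day 20 and day 1 TGF-β responses was called for PTGES, at 3.24 ± 0.77 log2 units (adjusted p = 0.00528, background 6.43% of genes with a count). It was not called by DESeq2 (adjusted p = 0.0175), by limma-voom on the 12 libraries (0.348) or with edgeR's filterByExpr (0.0407), nor without D1 flask 1 (0.0122) or D1+ TGF-β flask 2 (0.0304) or 3 (0.0115). For PTGS2 it was 3.48 ± 0.92 (adjusted p = 0.0124), and it passed without D1 flask 1 or 3, D20 flask 1 or 2, or D20+ TGF-β flask 2 or 3 (adjusted p = 2.36e-10 to 0.00952). Over the 12 fits without 1 library, 6 of which passed, the PTGS2 difference ran from 1.68 to 4.01, with an adjusted p of up to 0.161. Of the 6 members tested with the filter, 0 were called for this difference by edgeR (background 10.4%), 1 by DESeq2 and 0 by limma-voom on libraries, and 2 had an unadjusted p under 0.05. PTGER2 came closest (-0.75 ± 0.22, adjusted p = 0.0248), and PTGES2 (0.35 ± 0.16) passed without D1 flask 2 at 0.50 (adjusted p = 0.00825). Without D20+ TGF-β flask 3 and D1 flask 2 the difference was 3.47 for PTGES (adjusted p = 1.72e-28) and 2.21 for PTGS2 (adjusted p = 1.95e-12).

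PTGES2 and PTGES3 were not called for TGF-β at either time. PTGES2, a membrane-associated E synthase, was at 50.2, 36.8 and 49.0 cpm at D1, 45.7, 44.9 and 43.0 at D1+ TGF-β, 30.6, 33.9 and 28.4 at D20 and 40.5, 34.7 and 41.4 at D20+ TGF-β. Its log2 fold change was -0.02 on day 1, with a confidence interval from -0.27 to 0.23, and 0.33 on day 20 (0.08 to 0.58, adjusted p = 0.0346, or 0.00352 without D1 flask 2), where the flasks did not overlap. PTGES3, the cytosolic E synthase that is also known as the Hsp90 cochaperone p23, was at 118 to 145 cpm at D1, 139 to 155 at D1+ TGF-β, 95.3 to 105 at D20 and 98.3 to 104 at D20+ TGF-β. Its TGF-β fold changes were 0.10 (-0.08 to 0.28) on day 1 and 0.03 (-0.15 to 0.21) on day 20. Of the members, PTGES3 had the narrowest intervals. PTGIS, the prostacyclin synthase, had 2, 0 and 1 counts at D1, 0, 3 and 1 at D1+ TGF-β, 0, 5 and 5 at D20 and 5, 1 and 0 at D20+ TGF-β. With 23 counts over all libraries its level could not be compared between conditions at this depth.

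Receptors. PTGER2, the gene of EP2, was at 30.8, 37.8 and 34.5 cpm at D1 and at 17.8, 21.0 and 24.8 cpm at D1+ TGF-β. Untreated day 20 flasks were at 49.4, 60.3 and 63.2 cpm, and at D20+ TGF-β at 21.1, 25.7 and 16.6 cpm. The treated flasks lay below the untreated ones at both times, and the treated levels of the 2 days overlapped. PTGER2 fell by 0.70 (SE 0.16, adjusted p = 0.00525) on day 1 and by 1.45 (SE 0.15, adjusted p = 7.05e-06) on day 20. The day 20 call remained without each library in turn, with log2 fold changes of -1.60 to -1.32. The day 1 call was lost without D1 flask 2 or 3 or D1+ TGF-β flask 1 or 2 (adjusted p = 0.0114, 0.0140, 0.0298 and 0.0286), and held without both libraries that stood apart (adjusted p = 0.000968).

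PTGER4, the gene of EP4, was at 8.54, 3.53 and 10.2 cpm at D1 and at 16.4, 21.8 and 17.6 cpm at D1+ TGF-β. In D20 flasks it was at 6.09, 6.11 and 8.29 cpm, and at D20+ TGF-β at 9.75, 12.1 and 12.3 cpm. Here the treated flasks lay above the untreated ones at both times, the reverse of PTGER2. PTGER4 passed the filter largely through the treated flasks (5 treated and 1 untreated), where it is higher. Its values from the fit with the filter are therefore descriptions. PTGER4 rose by 1.38 (SE 0.27, adjusted p = 0.00216) on day 1, a call lost without D1+ TGF-β flask 2 (adjusted p = 0.0192), by 1.35 in the fit without a filter (adjusted p = 6.92e-05), and by 1.03 without the 2 libraries that stood apart (adjusted p = 4.19e-05). On day 20 it differed by 0.70 (SE 0.28, adjusted p = 0.0562), and without the 2 libraries by 0.64 (adjusted p = 0.00438), passing also without D1 flask 2 alone (0.00279). The difference between the responses of the 2 days was -0.67 (95% confidence interval -1.50 to 0.16).

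Because both receptor genes were measured in each library, the share of PTGER4 in their summed level per kilobase does not depend on the library total. It was 16.1%, 6.09% and 17.1% at D1 and 39.1%, 41.9% and 33.0% at D1+ TGF-β. At D20 it was 7.90%, 6.59% and 8.36%, and at D20+ TGF-β 24.4%, 24.7% and 34.0%. The treated flasks lay above all untreated ones, across both days. With 3 flasks against 3, an exact permutation test cannot go below p = 0.1, so none was run. Among the cyclooxygenases, PTGS2 made up 1.73%, 6.03% and 1.48% at D1, 1.05% to 1.80% at D1+ TGF-β, 2.86% to 3.45% at D20, and 10.9%, 6.33% and 0.851% at D20+ TGF-β. Among the 3 E synthases, PTGES made up 3.47% to 6.00% at D1, 0.811% to 0.969% at D1+ TGF-β, 14.0% to 17.6% at D20, and 34.7%, 26.2% and 3.71% at D20+ TGF-β.

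**Figure D2:**
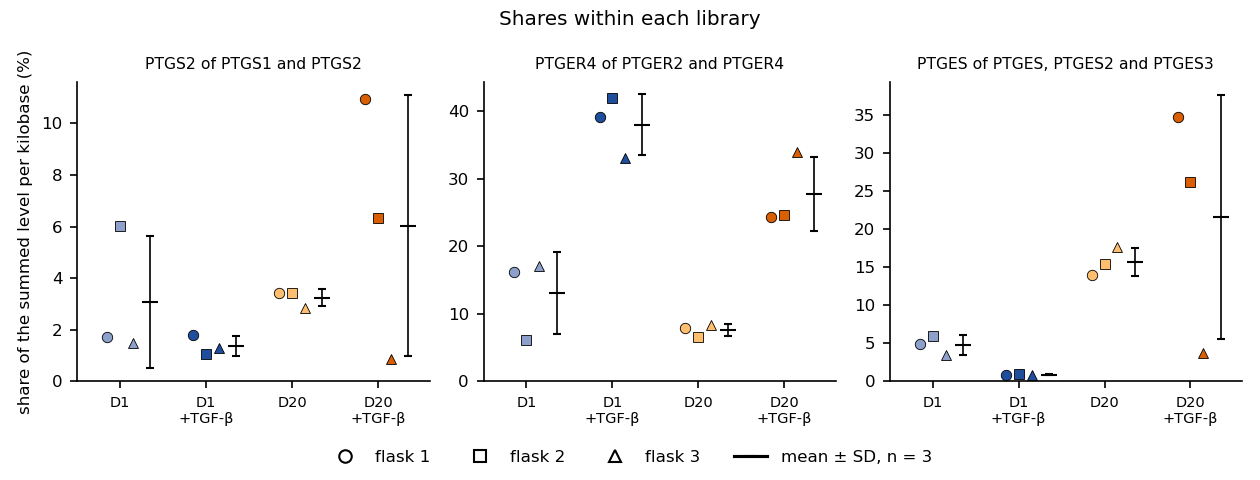
Share (%) of 1 gene in the summed level per kilobase of related members, in each flask of the 4 conditions, with the mean ± SD of 3 flasks beside the points. The PTGER4 share is 24.4% or more in every flask with TGF-β and 17.1% or less in every flask without it; flask 3 of D20+ TGF-β sits apart from flasks 1 and 2 in the PTGS2 and PTGES panels.

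D20 vs D1 addressed long culture without TGF-β. Of 6 tested members 3 were called, PTGER2 higher and PTGES2 and PTGES3 lower, against a background of 36.4%; the flasks did not overlap for 4 of 6 (background 55.6%). PTGER2 rose by 0.75 ± 0.15 (adjusted p = 0.000789). PTGES2 fell by 0.55 ± 0.12 (adjusted p = 0.00151), a call lost without D20 flask 3 (adjusted p = 0.0112), and PTGES3 fell by 0.42 ± 0.08 (adjusted p = 0.000838). The phospholipase and cyclooxygenase genes did not pass with all libraries: PLA2G4A differed by 0.68 ± 0.25 (adjusted p = 0.0333), PTGS1 by 0.38 ± 0.21 (adjusted p = 0.159), PTGES by 1.37 ± 0.44 (adjusted p = 0.0172, background 22.0%) and PTGS2 by -0.03 ± 0.56 (adjusted p = 1). D1 flask 2 bore on these: without it and D20+ TGF-β flask 3, PTGS1 was higher at D20 by 0.78 (adjusted p = 1.05e-08), PLA2G4A by 1.00 (adjusted p = 2.23e-05), PTGES by 1.64 (adjusted p = 1.44e-21) and PTGS2 by 1.77 (adjusted p = 4.04e-20). Without D1 flask 2 alone all 4 passed (adjusted p = 6.76e-05, 0.0029, 0.00661 and 0.00826), and PTGES also without D20 flask 1 or any 1 flask of D20+ TGF-β (2.49e-10 to 0.00887). PTGER4 differed by -0.07 ± 0.29.

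D20+ TGF-β vs D1+ TGF-β addressed what long treatment adds to short treatment. Of 6 tested members 3 were called, PTGS1 and PLA2G4A higher and PTGES3 lower (background 34.8%), and the flasks did not overlap for 5 (background 63.2%). In the fit without a filter PTGS2 and PTGES were called, both higher, against 21.2% of genes with a count. PTGES rose by 4.61 ± 0.57 (adjusted p = 5.27e-07) from the 7 to 16 counts of D1+ TGF-β, and PTGS2 by 3.44 ± 0.71 (adjusted p = 0.000436). Both calls held without each library in turn, with log2 fold changes of 3.85 to 5.11 and 2.62 to 3.96. The flasks of the groups did not overlap for PTGES, but they did for PTGS2. Its D20+ TGF-β flask 3, at 1.78 cpm, lay within the 1.34 to 2.21 cpm of D1+ TGF-β, so its rise rests on flasks 1 and 2. With limma-voom neither passed (adjusted p = 0.0363 for PTGES and 0.127 for PTGS2). PTGS1 rose by 1.03 ± 0.22 (adjusted p = 0.00168) and PLA2G4A by 1.19 ± 0.30 (adjusted p = 0.00475), the latter call being lost without D1+ TGF-β flask 1 or 2 or D20+ TGF-β flask 1 or 2 (adjusted p = 0.0197, 0.0379, 0.0349 and 0.0140). PTGES3 fell by 0.50 ± 0.08 (adjusted p = 0.000296). PTGER2 was level, at a log2 fold change of -0.00 with an interval from -0.35 to 0.34, and PTGER4 differed by -0.74 ± 0.25 (adjusted p = 0.0273, or 0.000744 without D1 flask 2). The comparisons share flasks, so they are not independent of each other.

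**Figure D3:**
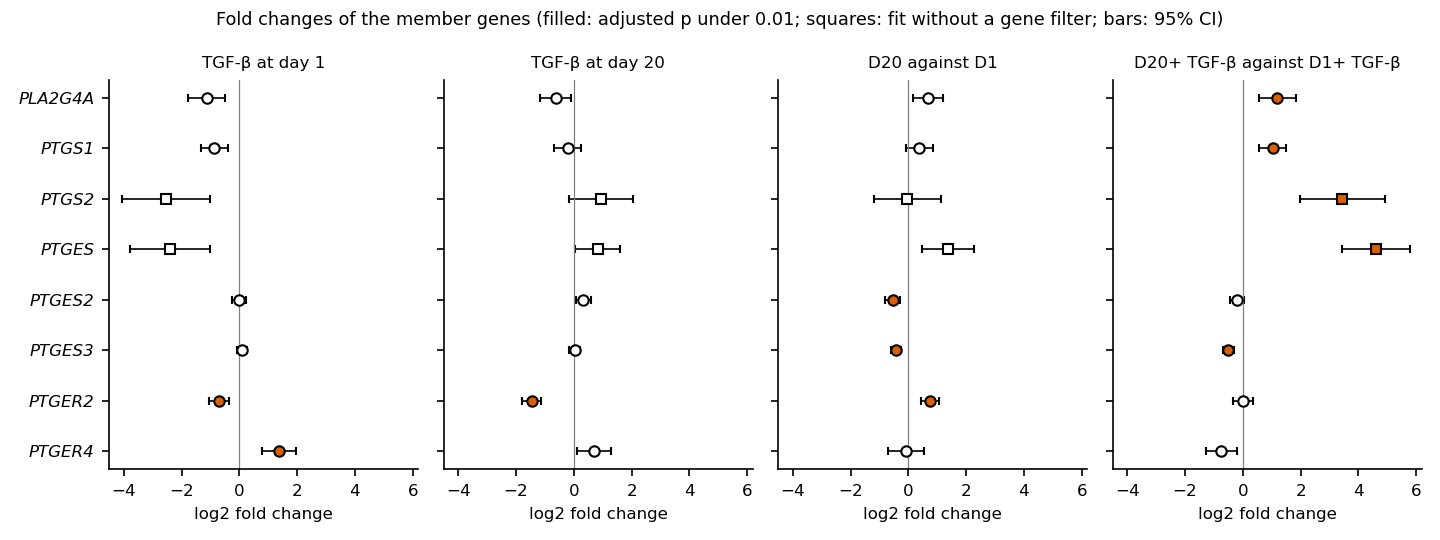
Log2 fold changes with 95% confidence intervals of 8 members in 4 comparisons (1 panel each, same axis); filled symbols mark an adjusted p under 0.01, squares the fit without a gene filter, and PTGIS is left out for its low counts. The 2 receptor genes lie on opposite sides of 0 in both TGF-β panels, and the widest intervals are those of PTGS2 and PTGES.

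Over the 4 conditions together, all 6 tested members were called in the test of any difference between the condition means (background 60.3%), with adjusted p from 2.85e-06 for PTGER2 to 0.00287 for PTGES2. In the fit without a filter, PTGES (adjusted p = 5.3e-07) and PTGS2 (adjusted p = 0.00219) were called and PTGIS (adjusted p = 0.65) was not. As a description over the 12 libraries, which share 4 conditions and the 2 libraries that stood apart, log2 cpm of PTGS1 and PLA2G4A had a Pearson r of 0.93, PTGS2 and PTGES of 0.89, and PTGER2 and PTGER4 of -0.69. PTGS1 with PTGS2 and PTGS1 with PTGES were at 0.87 and 0.85. Each r mixes differences between condition means with those between flasks: within D20, PTGS2 was at 10.9, 10.7 and 8.59 cpm in flasks 1, 2 and 3 and PTGES at 10.2, 12.1 and 14.4 cpm.

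For each member called, the 2 tested genes with the most similar pattern over the 12 libraries were named by Pearson r of log2 cpm. For PLA2G4A they were CSGALNACT1 (0.98) and MOB3C (0.97), for PTGS1 SPATA13 (0.98) and ZNF217 (0.97), and for PTGS2 AMPD3 and IL4R (both 0.95). For PTGES they were SIK2 and TNFAIP2 (both 0.97), for PTGES2 SAC3D1 (0.98) and EIF3K (0.97), and for PTGES3 IPO11 (0.98) and GNG5 (0.97). PTGER2 was followed by FHL1 and RHOB (both 0.98), and PTGER4 by BACH1 and SCN9A (both 0.93). These are the highest of 9490 values each and carry no test.

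The rest of the pathway was read from lists of 101 further genes in 7 groups, of which 50 were tested. In D1+ TGF-β vs D1, 2 were called higher and 12 lower, 28% of those tested beside 13.4% of all tested genes. In D20+ TGF-β vs D20, 7 were higher and 15 lower, 44% beside 27.5%. Between treated flasks of day 20 and day 1, 15 were higher and 8 lower, 46% beside 34.8%, and in D20 vs D1 9 were higher and 5 lower, 28% beside 36.4%. The median log2 fold change of the 50 genes was -0.25 on day 1 and -0.19 on day 20 of TGF-β treatment, against -0.02 and 0.01 over all tested genes. Without the 2 libraries that stood apart, where the spread is smaller by construction, the 14, 22, 23 and 14 genes called in these comparisons became 21, 30, 33 and 28, every gene called with all libraries among them. These shares are descriptions of lists chosen with earlier results of the data known. The day 1 TGF-β counts include SIK1, TBXAS1 and ZFP36, and the day 20 counts include these and PDE4D. These genes passed the filter only or largely through the flasks where they are higher, so the TGF-β shares are in part set by the filter.

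Among other prostanoid synthases, TBXAS1, which makes thromboxane from prostaglandin H2, was at 41.7, 70.3 and 29.3 cpm at D1 and 9.54, 9.32 and 12.1 at D1+ TGF-β, and at 74.8, 78.9 and 74.7 at D20 and 21.6, 21.7 and 7.89 at D20+ TGF-β. It fell by 2.22 on day 1 (adjusted p = 0.000419) and by 2.14 on day 20 (adjusted p = 0.000136), the steepest falls among the 50 genes, and the other 4 synthases tested were not called for TGF-β. TBXAS1 reached 10 cpm in 6 untreated and 3 treated flasks, so it passed the filter largely through the untreated ones, where it is higher. The prostaglandin D synthase gene PTGDS was at 13.5 to 48.6 cpm over all flasks. In D20 vs D1 PRXL2B fell by 0.54 (adjusted p = 5.34e-05) and the carbonyl reductase gene CBR1 by 0.40 (adjusted p = 0.00107). TBXAS1 was lowest in D20+ TGF-β flask 3 within its group, as the inducible members were.

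In release and re-esterification of arachidonic acid, 9 of 18 genes were tested. LPCAT3, which returns arachidonate to phospholipids, fell by 0.60 on day 1 (adjusted p = 0.000233) and by 0.80 on day 20 (adjusted p = 6.72e-06), and rose by 0.73 in D20 vs D1 (adjusted p = 8.91e-06). ABHD6, a monoacylglycerol lipase, rose by 0.61 on day 20 of TGF-β (adjusted p = 0.000351), while the lysosomal phospholipase PLA2G15 fell by 0.52 (adjusted p = 0.000437). The secreted phospholipase gene PLA2G2A had no read in 11 of the 12 libraries, which allows up to 0.346 cpm in the shallowest.

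In transport and inactivation, all 3 tested genes fell on day 1. PTGR1, which inactivates oxidised prostaglandins, fell by 0.47 (adjusted p = 0.000521), PTGR3 by 0.62 (adjusted p = 0.000532) and the exporter gene ABCC4 by 0.56 (adjusted p = 0.000155). On day 20 PTGR1 fell by 1.11 (adjusted p = 1.48e-07) and PTGR3 by 0.41 (adjusted p = 0.00335), and ABCC4 was not called. HPGD, the gene of the main prostaglandin-degrading dehydrogenase, had no read in any library. The uptake transporter gene SLCO2A1 had 1, 12 and 0 counts at D1, 9, 23 and 7 at D1+ TGF-β, 4, 8 and 4 at D20 and 1, 0 and 0 at D20+ TGF-β. In the fit without a filter its conditions differed (adjusted p = 0.00072), and it was called lower at D20+ TGF-β than at D1+ TGF-β (adjusted p = 0.000194), where its treated flasks of the 2 days did not overlap. On day 1 it was not called for TGF-β (adjusted p = 0.0618).

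Of other prostanoid receptors, 4 of 10 were tested. The nuclear receptor gene PPARG, whose product can bind a prostaglandin D2 metabolite, fell by 1.18 on day 1 (adjusted p = 9.55e-06) and by 1.39 on day 20 (adjusted p = 1.03e-06), and PPARD fell by 0.36 on day 20 (adjusted p = 0.00244). PTGFR, the receptor gene for prostaglandin F2α, was at 14.9, 15.9 and 18.7 cpm at D1, 14.5, 12.1 and 10.7 at D1+ TGF-β, 15.3, 14.2 and 13.2 at D20 and 34.8, 24.6 and 19.4 at D20+ TGF-β. All 3 flasks of D20+ TGF-β were above the other 9. It rose by 0.91 on day 20 (adjusted p = 0.00123), differed by -0.41 on day 1 (adjusted p = 0.139), and the 2 responses differed by 1.32 ± 0.26 (adjusted p = 0.00328). Of the remaining E receptors, PTGER1 was at 1.16 to 3.19 cpm and PTGER3 at 0.101 cpm or below, and the prostacyclin receptor gene PTGIR was at 2.57 to 6.59 cpm.

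Downstream of EP2 and EP4, 16 of 27 genes of Gs and cyclic AMP signalling were tested. On day 1 TGF-β raised 2 and lowered 3 and on day 20 it raised 3 and lowered 6, so both directions occurred. The raised genes include SIK1 and PDE4D, which the filter limits as given below. SIK1, a kinase gene known to be induced by cyclic AMP, was at 2.20 on day 1 (adjusted p = 1.46e-05) and at 1.82 on day 20 (adjusted p = 3.74e-05), as log2 fold changes. The kinase-anchoring gene AKAP12 rose by 1.20 (adjusted p = 7.19e-06) and 0.74 (adjusted p = 0.000186). The phosphodiesterase gene PDE4D, whose product breaks down cyclic AMP, was at 1.86 on day 20 (adjusted p = 2.93e-05). SIK1 and PDE4D reached 10 cpm in the 6 treated flasks and in 0 untreated ones, so that they passed the filter through the group in which they were high and had to differ, and these values are descriptions. Other cyclic AMP-responsive genes of the list were below the filter and are named after their values had been seen. NR4A2 was at 12.6, 34.3 and 11 cpm at D1 and at 1.28, 2.68 and 2.33 cpm at D1+ TGF-β, so the direction was the reverse of SIK1. In the fit without a filter NR4A2 fell by 3.16 on day 1 (adjusted p = 5.56e-05), or by 2.39 without the 2 libraries that stood apart, and it differed by 1.34 on day 20 (adjusted p = 0.0246). NR4A3 fell by 2.64 on day 1 (adjusted p = 0.00211), and without the 2 libraries it differed by -1.26 (adjusted p = 0.0116). The regulatory subunit gene PRKAR2B fell by 1.13 on day 1 (adjusted p = 0.00233) and by 0.75 on day 20 (adjusted p = 0.00743). Among adenylyl cyclases, ADCY6 fell by 0.40 and 0.74 (adjusted p = 0.00784 and 4.41e-05), and ADCY9 fell by 0.84 on day 20 (adjusted p = 0.00499). In D20 vs D1 the arrestin gene ARRB1 rose by 1.02 (adjusted p = 4.9e-06) and PRKAR2B by 0.98 (adjusted p = 0.001).

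**Figure D4:**
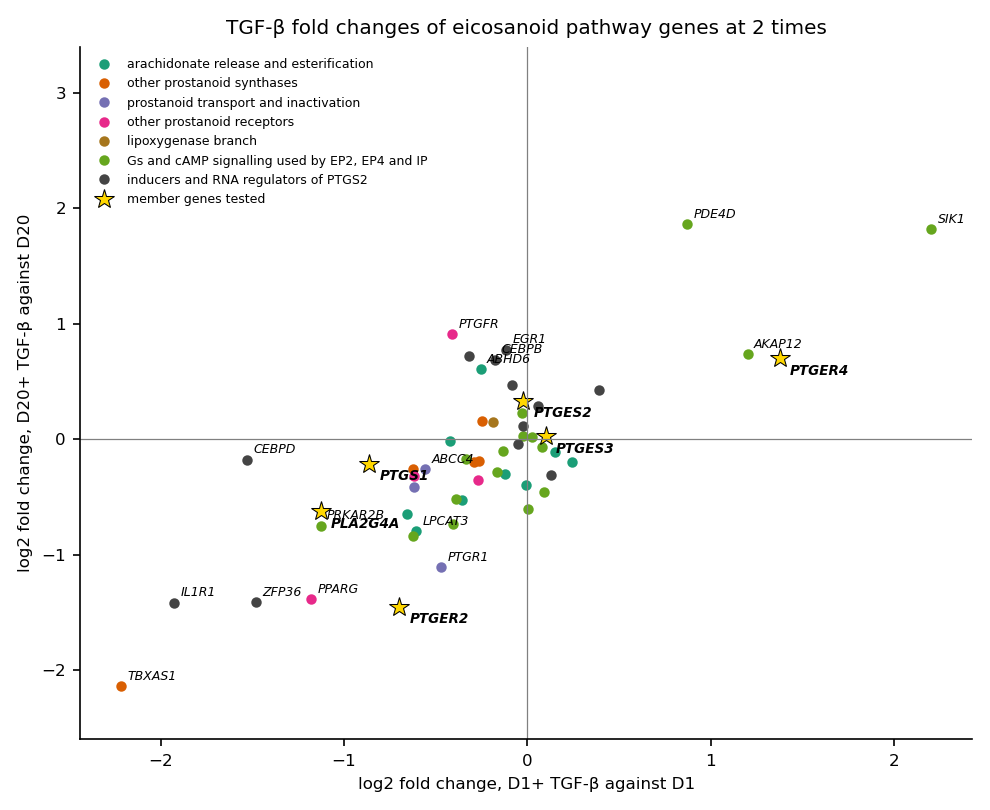
Log2 fold change of TGF-β on day 1 (x axis) and day 20 (y axis) for the 50 further pathway genes tested (dots, coloured by list, some named) and the 6 tested members (stars). PTGER2 and PTGER4 lie at opposite corners, at -0.70 and -1.45 and at 1.38 and 0.70, with TBXAS1 at the lower left and SIK1 at the upper right.

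Of a list of 20 genes around the induction of PTGS2 and the regulation of its RNA, 12 were tested. IL1R1, the receptor of interleukin-1, fell by 1.93 on day 1 (adjusted p = 0.00273) and by 1.42 on day 20 (adjusted p = 0.00696). Its D1 flasks were at 112, 259 and 90.9 cpm, and without the 2 libraries that stood apart the falls were -1.31 (adjusted p = 7.45e-10) and -1.06 (adjusted p = 1.77e-09) as log2 fold changes. ZFP36, whose product speeds the decay of AU-rich RNAs, fell by 1.48 (adjusted p = 2.5e-05) and 1.41 (adjusted p = 8.02e-06). It reached 10 cpm in 6 untreated and 2 treated flasks, so it passed the filter largely through the untreated ones, where it is higher. These ZFP36 values are descriptions. CEBPD fell by 1.53 on day 1 (adjusted p = 0.00674), and EGR1 and CEBPB rose by 0.78 and 0.69 on day 20 (adjusted p = 0.00291 and 0.00238). Of the lipoxygenase branch 1 of 12 genes was tested, LTA4H, at 64.0 to 102 cpm and not called for TGF-β at either time.

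Cytokine genes of the same list were too low for the filter and were singled out after their values had been seen. At D20+ TGF-β, IL1B was at 17.0, 7.96 and 0.657 cpm and IL1A at 17.6, 9.58 and 1.31 cpm. IL6 was at 38.6, 15.4 and 4.04 cpm and CXCL8 at 194, 69.7 and 3.85 cpm. In all 4, flask 1 was the highest and flask 3 the lowest of its group, the order that PTGS2 and PTGES also had. PLA2G4A, PTGFR, AKR1B1 and ACSL4 had this order too, while TBXAS1 and PTGDS were highest in flask 2. Flask 3 stood apart over all tested genes, so the order is not particular to the cytokines. Its frequency over all genes was not counted. In the other 9 libraries CXCL8 was at 0.571 to 7.70 cpm. At D1, IL1B was at 0.254, 6.92 and 0.670 cpm and the immediate early gene NR4A1 at 2.79, 21.4 and 2.18 cpm, so the flask with 22.3 cpm of PTGS2 was also the highest for these. The part of these differences between flasks in the member results was not tested.

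**Figure D5:**
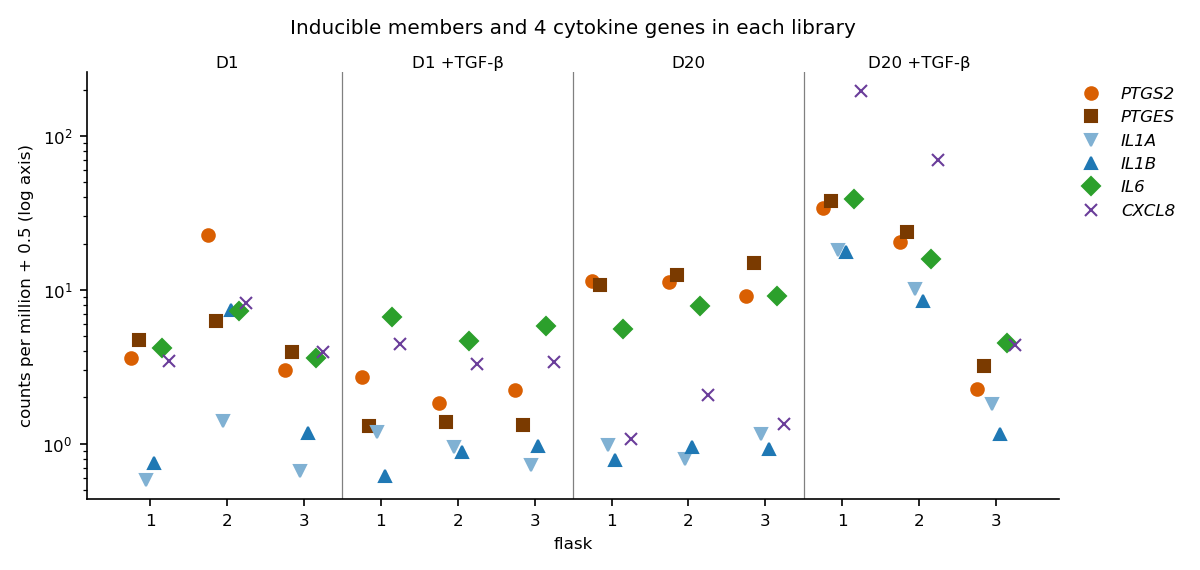
Level in cpm + 0.5 (log axis) of PTGS2, PTGES and 4 cytokine genes in each of the 12 libraries, grouped by condition, with flask numbers on the x axis. At D20+ TGF-β all 6 genes are high in flasks 1 and 2 and low in flask 3, and at D1 PTGS2 stands high in flask 2.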

How the data were processed

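RNA sequencing of WI-38 cells in 4 conditions of 3 flasks was analysed. The authors trimmed the reads with Trimmomatic, mapped them to hg19 with Rsubread and deposited raw counts per gene for each of 48 lane columns, without normalization. They also deposited log2 cpm, as voom writes them, for 9412 genes, 4 of the 9 members among them. The counter, its annotation and its use of strand are not given in the sources used here. The 4 lanes of each library were summed, and tables were joined by Entrez identifier. Tests used edgeR 4.0.16 in R 4.3.3 with TMM factors, glmQLFit and glmQLFTest, 1 mean per condition over 12 libraries, and Benjamini-Hochberg adjustment over 9490 genes (10 cpm in 6 of 12 libraries) or, for the 3 low members, 20434 genes with a count. The threshold was 0.01. Log2 cpm for correlations used a prior count of 2. The common biological coefficient of variation was 9.35%. Counts per kilobase used the union of GENCODE exons in GRCh37, and 8 of 9 members had a RefSeq promoter window.

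The code was tested on simulated data. For D20+ TGF-β vs D20 it found 95% of 100 genes shifted by 1 log2 unit and 100% of those shifted by 2, with 3 false calls among 9490 genes. The fit without a filter recovered 98% and 100% with 33 false calls among 20434 genes, more than the threshold allows for. In a simulated D1+ TGF-β vs D1 without change, the 2 fits made 0 and 11 calls.

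The members, lists, motifs and settings were chosen with earlier results of these data known. Named genes were all members, the called genes with the largest changes of each pathway list (up to 3 for TGF-β, up to 2 for D20 vs D1) and the 2 genes most like each called member; a few that meet the rule are not reported here. Cytokine genes, NR4A1, NR4A2, NR4A3, SLCO2A1 and genes at or near 0 were named outside it. Alternatives were DESeq2 1.42.0, limma-voom (limma 3.58.1) on libraries or lanes, limma on the deposited log2 values, other scaling, filters and samples, a replicate block and leaving out each library.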

Additional observations from a re-analysis of the deposited data

Results flagged for a closer look

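The TGF-β response differed between day 20 and day 1, by edgeR's test of the difference itself at an adjusted p under 0.01, for 1 member and 9 genes named beside the members. Of the genes under the filter, only PTGS2, PTGES, PTGIS and NR4A2 were looked up, the last of these after its values had been seen. Other low genes, such as CXCL8, IL1B and SLCO2A1, were not, and genes listed only as cell type or proliferation markers were left out. The list is therefore not complete. For PTGES the difference was 3.24 log2 units and for NR4A2 4.50, both from the fit without a gene filter. It was positive for PTGFR (1.32) and ABHD6 (0.86). It was negative for PTGR1 (-0.64), the kinase subunit gene PRKACA (-0.55), and for the TGF-β response genes ACTA2 (-1.94), IGFBP3 (-1.57), CCN2 (-1.47) and TAGLN (-0.81).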

How the results depend on the processing

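Of 882 recomputed values of single members, 781 kept their side of the threshold (26 of them with a change of sign and no call on either side), 18 lost and 81 gained a call, and 2 reversed. Both reversals were PTGS2 in D20 vs D1, which was -0.03 with all libraries, from -0.46 to 1.77 without each library in turn, 1.77 without D1 flask 2 (adjusted p = 0.00826) and 1.77 without that library and D20+ TGF-β flask 3 (1.765 before rounding). Of 227 recomputed counts of called members, 50 moved by over 1.5 times.

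For TGF-β on day 1 the 2 calls became 4 without a filter, with 48 lanes as samples and with no composition factor, and 0 to 4 without each library in turn; for TGF-β on day 20 the 1 call became 4 with 48 lanes, 2 with only the groups compared, and 1 to 3 without a library. For D20 vs D1 the 3 calls became 5 with 48 lanes and 2 to 5 without a library, and for the difference of responses the 0 calls became 1 with DESeq2, 4 with 48 lanes and 0 to 1 without a library. For treated flasks over time (day 20 against day 1) the 3 calls ranged from 2 to 4 without a library. Without both libraries that stood apart the counts were 4, 3, 5 and 3 for TGF-β on day 1, TGF-β on day 20, D20 vs D1 and the difference. Lanes repeat 1 RNA, so the 48-lane fit understates the spread.

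Among PTGS2, PTGES and PTGIS, 0 calls for TGF-β on day 1 became 2 with only the groups compared, 0 to 2 without a library and 1 without both libraries. For TGF-β on day 20, 0 became 0 to 2 without a library and 2 without both. For treated flasks over time, 2 became 0 with limma-voom. In D20 vs D1, 0 became 1 with only the groups compared, 0 to 2 without a library and 2 without both. For the difference, 1 became 0 with DESeq2 and limma-voom, 0 to 2 without a library and 2 without both. The causes were not tested. The test over the 4 conditions called 5 or 6 of 6 members without a library, and 9 of 9 members kept their rank per kilobase, as a mean over 12 libraries, with the longest transcript as length. Within conditions ranks then changed (PTGES from 4 to 5 at D20), and the PTGES share of the E synthases became 11.7% to 14.9% at D20 and 29.9%, 22.3% and 2.99% at D20+ TGF-β.

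Flasks that share a replicate number did not deviate together as a set: the correlation of their deviations ran from -0.224 to 0.325 over 18 pairs, with 4 over 0.1. Between flasks of other numbers it ran from -0.361 to 0.236 over 36 pairs, with 12 over 0.1. With 3 flasks per group this check cannot exclude a pairing. With the number as a replicate block, 3, 1, 3, 3 and 0 tested members were called for TGF-β on day 1, TGF-β on day 20, treated flasks over time, untreated flasks over time and the difference, and 2, 0, 2, 1 and 1 of the 3 low ones. Limma on the deposited log2 values held 4 members and gave no such count. PTGES in D1+ TGF-β rests on 7 to 16 counts per library, and PTGIS on 0 to 5.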
